A study of Mus musculus with 6 samples.

Results

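The genes described here encode synaptic adhesion proteins: the neurexins Nrxn2 and Nrxn3, the neuroligins Nlgn1, Nlgn2 and Nlgn3, and the leucine-rich repeat transmembrane proteins Lrrtm1, Lrrtm2, Lrrtm3 and Lrrtm4. They were chosen by symbol, with earlier results of these data known, and are 9 of the 23282 rows in the count tables. Other genes of these families are not analysed here. Messenger RNA of the hippocampus was sequenced in C57BL/6 mice aged 16 weeks. The labels name a QuantSeq kit, a name used for a method that reads tags near the 3′ end of transcripts, but the catalogue number beside it may belong to another kit of the same maker that covers whole transcripts. Whether counts scale with transcript length is therefore not known, and levels between genes are given both ways. The animals labelled PHF2 t/g gave 3 libraries and wild-type (WT) animals gave 3 libraries. The label is read here as a transgene for PHF2, a histone H3 lysine demethylase; the sources used here do not say what drives it or how many founder lines there were. The comparison asks how hippocampal transcripts differ between these genotypes. The labels do not say whether the libraries of a group came from separate animals, so the p-values measure only the spread between these libraries.

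Neurexins are presynaptic receptors. Neuroligins and Lrrtm proteins sit on the postsynaptic side and bind them across the cleft, which helps to assemble and specify synapses. Neuroligin-1 acts mainly at excitatory synapses, neuroligin-2 at inhibitory ones and neuroligin-3 at both. Lrrtm proteins act mainly at excitatory synapses. Neurexin transcripts start from alternative promoters and are spliced in many forms. The tables hold 1 count per gene, so the forms of a neurexin gene are not told apart.

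Nlgn1 and Nlgn2 made up nearly all neuroligin counts, and for that reason RefSeq promoters of this pair are shown. The windows (GRCm38.p6) run from 250 bases before to 50 after the start. CG dinucleotides, a common feature of mammalian promoters, are in capitals. Nlgn1 has 2 windows in the table, with 14 and 6 CG. The one shown, with 14, is chr3:26331860-26332159 (minus strand), and the Nlgn2 window is chr11:69837735-69838034 (minus strand) and holds 26 CG.
Nlgn1: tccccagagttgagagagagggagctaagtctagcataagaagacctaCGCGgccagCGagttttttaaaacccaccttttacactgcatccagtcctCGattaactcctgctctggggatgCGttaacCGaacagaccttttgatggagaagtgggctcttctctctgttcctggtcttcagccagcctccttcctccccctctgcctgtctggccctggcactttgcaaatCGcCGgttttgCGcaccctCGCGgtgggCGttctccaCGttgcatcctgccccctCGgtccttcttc
Nlgn2: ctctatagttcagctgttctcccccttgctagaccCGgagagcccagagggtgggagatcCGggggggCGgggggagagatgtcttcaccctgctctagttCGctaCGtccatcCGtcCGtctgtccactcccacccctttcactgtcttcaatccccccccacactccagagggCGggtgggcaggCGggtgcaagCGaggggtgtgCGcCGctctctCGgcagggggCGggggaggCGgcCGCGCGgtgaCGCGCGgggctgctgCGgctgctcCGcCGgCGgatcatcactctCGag
A window of this length held at least 14 CG in 36.3% and at least 26 CG in 16.9% of the 32851 promoters in the table, with a median of 7. Windows are listed for 6 of the 9 genes, with 10 listed windows that held 2 to 26 CG. Lrrtm2 was left out of this listing, and Nrxn2 and Nlgn3 had no window in it. No measurement of chromatin or of PHF2 binding is part of these data, so the windows describe the genes and not their regulation.

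Library totals were 6053363 to 8612720 counts in PHF2 t/g and 5512171 to 8844718 counts in WT. Levels are given as CPM (counts scaled to a common library total, with edgeR's TMM factors). Tests are edgeR's quasi-likelihood test over 12831 genes that passed a low-count filter, with Benjamini-Hochberg adjustment and a threshold of 0.05. Phf2 itself stood at 35.5, 37.3 and 43.1 CPM in PHF2 t/g, against 38.3, 35.6 and 39.3 CPM in WT (log2 fold change 0.03, edgeR adjusted p = 0.929). The sources used here do not say whether transgene transcripts carry the part of Phf2 that was counted, so this row does not check the genotype. WT replicate 2 lay away from the other 5 libraries when all were placed by multidimensional scaling (1.08 on the first axis, the others −0.533 to 0.152). Of the hippocampal markers, the summed CA1 level was 504 to 572 CPM in PHF2 t/g against 582 to 614 CPM in WT, most of it from Mpped1. Of the 4 CA1 markers, Wfs1 rose (50.3 CPM in PHF2 t/g against 35.9 CPM in WT, edgeR adjusted p = 0.0191) and none was called lower. Pou3f1 lay just above 0 (log2 fold change 0.03), and the other CA1 markers lay below 0. Fibcd1 was at 15.2 CPM in PHF2 t/g against 27.9 CPM in WT (edgeR adjusted p = 0.588). Mpped1 was at 418 CPM in PHF2 t/g against 478 CPM in WT (edgeR adjusted p = 0.259), without overlap of the groups. The summed CA2 and CA3 level was 167 to 177 CPM in PHF2 t/g against 185 to 228 CPM in WT. The dentate granule cell markers Prox1, Dsp, Tdo2 and C1ql2 together reached 4.02 to 19.7 CPM in PHF2 t/g against 6.66 to 19.6 CPM in WT, and Dsp was at 0 in WT replicate 3.

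None of the 9 adhesion genes passed the test in either direction. All 9 passed the low-count filter, and 0 of the 9 had an adjusted p under 0.05, where 2.27% of all tested genes did. None had an unadjusted p under 0.05 (14.7% of all tested genes), and none was called by DESeq2, which gave 7 of them an adjusted p, or by limma-voom. The libraries of PHF2 t/g and WT overlapped in each of the 9 genes, while in 20.6% of all tested genes they did not (10.1% higher and 10.4% lower). Log2 fold changes were above 0 for 4 genes and below 0 for 5, with a median of −0.02 beside 0.02 for all tested genes. With library size alone as the scaling the number above 0 was 6. Leaving out 1 library, WT replicate 2, brought 1 call, that of Lrrtm2, described with that gene.

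**Figure D1:**
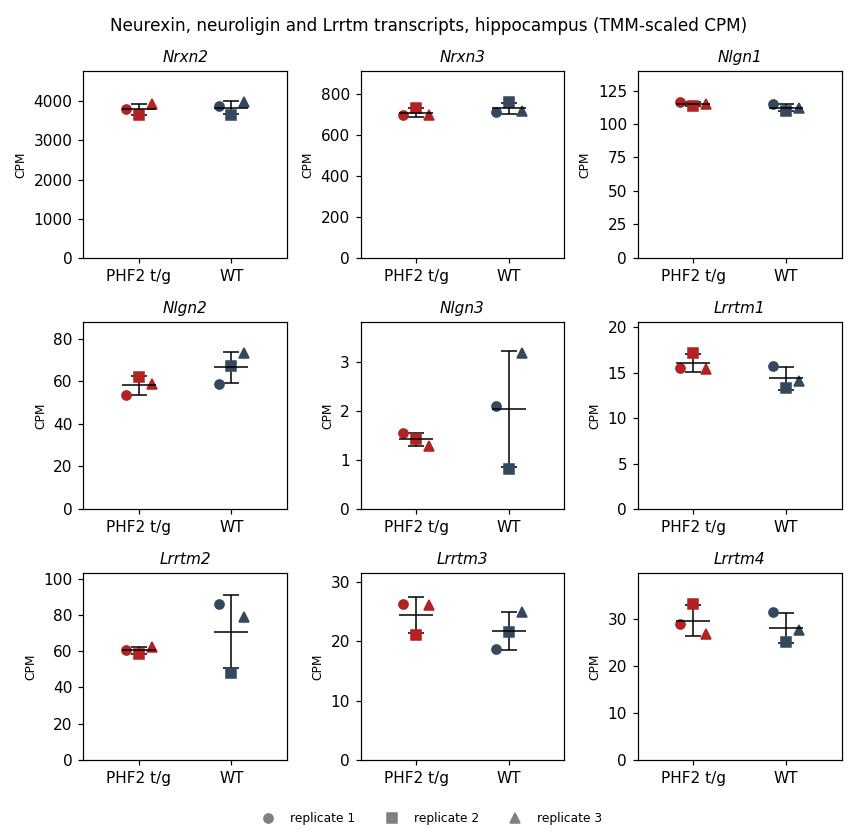
Level of each of the 9 adhesion genes in CPM (vertical axes, each from 0) in the 3 PHF2 t/g (red, left) and 3 WT libraries (dark, right), with the marker shape giving the replicate number and bars giving mean ± SD. The groups overlap in each panel, and the widest spread relative to its mean is in WT for Nlgn3 and Lrrtm2.

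The neurexin rows had by far the highest levels of the set, with a limit on the Nrxn2 count given below. Nrxn2 (chromosome 19, 6418731 to 6544169, GRCm38) stood at 3800, 3643 and 3933 CPM in PHF2 t/g, against 3876, 3654 and 3982 CPM in WT. Replicate 2 was the lowest library of each group, and the groups covered nearly the same range. The means were 3792 ± 145 CPM in PHF2 t/g against 3837 ± 167 CPM in WT (SD, n = 3 each), and Nrxn2 ranked 10 among the 12831 tested genes by its WT level. The fitted log2 fold change came to −0.02 (SE 0.08; 95% interval −0.18 to 0.14; edgeR adjusted p = 0.943).

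Nrxn3 (chromosome 12, 88722876 to 90334935) stood at 696, 732 and 694 CPM in PHF2 t/g, against 708, 759 and 715 CPM in WT. Each WT library lay above the PHF2 t/g library of the same number, although those numbers are not known to pair the libraries, and the groups overlapped. The estimate on the log2 scale was −0.04 (SE 0.07; 95% interval −0.20 to 0.11; edgeR adjusted p = 0.852). For both neurexins the direction turned with library size alone, at 0.08 for Nrxn2 and 0.06 for Nrxn3. Nrxn2 took 84.3% ± 0.892 of the summed counts of these neurexin genes in PHF2 t/g and 84.1% ± 1.08 in WT (SD, n = 3 each). This share does not depend on the scaling of libraries, and the exact permutation test (two-sided) returned p = 0.7. With 3 libraries a group its smallest possible p is 0.1.

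The annotation limits what some of these counts can mean. GENCODE M21 places the antisense gene Gm14964, not analysed here, over exons of Nrxn2 near an annotated 3′ end, and likewise the antisense gene Gm4409 for Lrrtm4 and the same-strand transcript Gm21986 for Nlgn3. No source used here says if counting was by strand, so reads of these neighbours may be part of the counts given for Nrxn2, Lrrtm4 and Nlgn3. Slc22a12, a urate transporter gene on the opposite strand within Nrxn2, had 0 to 3 counts in each library. Across the last 500 bases of their annotated transcripts, Nrxn2 and Nrxn3 shared no run longer than 18 bases, and no other pair of the 9 genes shared more than 13.

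Among the neuroligins, Nlgn1 (chromosome 3, 25426215 to 26332460) was the most even transcript of the set. It stood at 116, 113 and 115 CPM in PHF2 t/g, against 115, 110 and 112 CPM in WT. The 6 libraries fell within a narrow band. The fitted log2 difference was 0.04 (SE 0.08; 95% interval −0.13 to 0.20; edgeR adjusted p = 0.883).

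Nlgn2 (chromosome 11, 69823122 to 69837784), whose protein binds the inhibitory scaffold gephyrin, had the smallest unadjusted p of the 9 genes. It stood at 53.4, 62.1 and 58.9 CPM in PHF2 t/g, against 59.0, 67.4 and 73.4 CPM in WT. The lowest WT library lay below the highest PHF2 t/g library, so the groups overlapped. Its estimated log2 fold change equalled −0.20 (SE 0.11; 95% interval −0.42 to 0.02; edgeR adjusted p = 0.392). It lay below 0 under each of 16 alternative settings, at −0.29 to −0.10, with adjusted p from 0.204 to 0.769.

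The rows whose profile over the 6 libraries was nearest to that of Nlgn2 were the chaperone genes Dnajc8 and Dnajc4 and the calcium channel gene Cacna1a. Their root mean square differences in mean-centred log2 CPM were 0.0207, 0.025 and 0.0267. This likeness is a description over 6 libraries and none of the 3 passed the test (edgeR adjusted p = 0.359, 0.672 and 0.303).

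Nlgn3 (chromosome X, 101299168 to 101325963) was near the limit of detection. It had 14, 10 and 8 counts in PHF2 t/g, against 11, 7 and 21 counts in WT. The 21 counts of WT replicate 3 have an exact 95% Poisson interval of 13.0 to 32.1, and the 7 counts of WT replicate 2 one of 2.81 to 14.4, covering counting error only and not adjusted for library size. The log2 fold change equalled −0.44 (SE 0.45; 95% interval −1.40 to 0.51; edgeR adjusted p = 0.706), and it was 0.08 without WT replicate 3. In CPM the gene stood at 1.55, 1.42 and 1.29 in PHF2 t/g against 2.09, 0.822 and 3.18 in WT, so the WT libraries lay on both sides of the PHF2 t/g libraries.

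Nlgn1 supplied 67.9%, 64.1% and 65.7% of the neuroligin counts in PHF2 t/g, against 65.2%, 61.7% and 59.5% in WT. Nlgn2 supplied 31.2%, 35.1% and 33.6% in PHF2 t/g, against 33.6%, 37.9% and 38.9% in WT. The mean Nlgn1 share was 3.8 percentage points higher in PHF2 t/g (exact two-sided permutation p = 0.2; 0.7 after Benjamini-Hochberg adjustment over 9 shares), and the groups overlapped. The Nlgn3 share was 0.814% ± 0.087 in PHF2 t/g and 1.11% ± 0.614 in WT (SD, n = 3 each).

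Of the Lrrtm genes, 3 lie inside genes of the alpha-catenin family, which link cadherins to actin, on the opposite strand. Lrrtm1 lies within Ctnna2 and Lrrtm3 within Ctnna3, in each case without touching an annotated exon of the host. Lrrtm2, on chromosome 18, lies within Ctnna1, and annotated exons of these genes overlap. Without strand, tags of host and guest cannot be told apart where they overlap.

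Lrrtm2 was the most abundant Lrrtm transcript and the most uneven of the Lrrtm genes in WT. It stood at 60.8, 58.2 and 62.3 CPM in PHF2 t/g, against 86.0, 47.7 and 78.8 CPM in WT. The PHF2 t/g libraries were close together, WT replicates 1 and 3 lay above them and WT replicate 2 lay below them. With all libraries the log2 fold change equalled −0.22 (SE 0.21; 95% interval −0.73 to 0.29; edgeR adjusted p = 0.704). Without WT replicate 2 it was −0.45 (SE 0.10; edgeR adjusted p = 0.00636), and without both that library and PHF2 t/g replicate 1 it was −0.45 (edgeR adjusted p = 0.0412). The estimate shrank to −0.07 without WT replicate 1 and −0.14 without WT replicate 3 (edgeR adjusted p = 0.896 and 0.849), so each WT library moved it by over 1.5 times. WT replicate 2 is the library that stood apart in the scaling plot, and its part in the level of Lrrtm2 was not tested beyond these values. Lrrtm2 was not called under any of the other 14 alternatives, and over all 16 the adjusted p ran from 0.00636 to 0.896. The host gene Ctnna1 stood at 21.9 ± 1.94 CPM in PHF2 t/g against 22.8 ± 2.58 CPM in WT (SD, n = 3 each; log2 fold change −0.07, edgeR adjusted p = 0.875).

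Lrrtm4 (chromosome 6, 80018877 to 80810143), whose protein also binds heparan sulfate proteoglycans, stood at 28.8, 33.1 and 26.7 CPM in PHF2 t/g, against 31.4, 25 and 27.5 CPM in WT, a log2 fold change of 0.09 (SE 0.13; edgeR adjusted p = 0.81). The groups overlapped, with WT replicate 1 second only to PHF2 t/g replicate 2. Lrrtm3 (chromosome 10, 63928472 to 64090277) stood at 26.3, 21 and 26.2 CPM in PHF2 t/g, against 18.7, 21.6 and 25 CPM in WT, a log2 fold change of 0.17 (SE 0.14; edgeR adjusted p = 0.636), and PHF2 t/g replicate 2 lay among the WT libraries.

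Lrrtm1 (chromosome 6, 77242689 to 77257791) stood at 15.5, 17.2 and 15.4 CPM in PHF2 t/g, against 15.8, 13.3 and 14.1 CPM in WT. One WT library, replicate 1, lay within the PHF2 t/g range. The log2 fold change equalled 0.17 (SE 0.15; 95% interval −0.14 to 0.48; edgeR adjusted p = 0.658). The host Ctnna2 stood at 117 ± 8.41 CPM in PHF2 t/g against 137 ± 13 CPM in WT (SD, n = 3 each; log2 fold change −0.23, edgeR adjusted p = 0.229). The host Ctnna3 had 0 to 6 counts per library and did not pass the low-count filter.

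**Figure D2:**
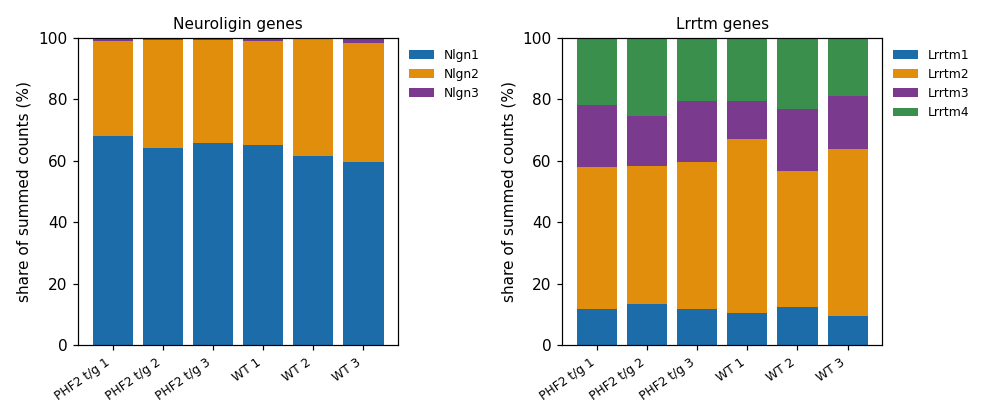
Share of each neuroligin gene (left panel) and each Lrrtm gene (right panel) in the summed counts of its family members, in percent, with 1 stacked bar per library and the 3 PHF2 t/g libraries left of the 3 WT libraries. Nlgn3 stays under 2% of neuroligin counts, and Lrrtm2 covers 45.0% to 47.7% of Lrrtm counts in PHF2 t/g against 44.3% to 56.6% in WT.

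Lrrtm2 gave 46.3% ± 1.35 of the Lrrtm counts in PHF2 t/g and 51.7% ± 6.53 in WT (SD, n = 3 each). The shares of Lrrtm4, Lrrtm3 and Lrrtm1 were 22.6%, 18.8% and 12.3% in PHF2 t/g, against 21%, 16.5% and 10.8% in WT. Over the 9 family shares the exact permutation test gave p from 0.2 to 0.7, and 0.7 for each after adjustment; this design could not have passed a threshold of 0.05.

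The order of levels was the same in both groups from the top to the third place: Nrxn2, Nrxn3 and Nlgn1. Lrrtm2 and Nlgn2 followed at means of 60.4 and 58.1 CPM in PHF2 t/g and 70.9 and 66.6 CPM in WT, and their libraries overlapped in each group, so these neighbours did not differ beyond their spread. Lrrtm4, Lrrtm3, Lrrtm1 and Nlgn3 came next, with no overlap between neighbours within a group. These levels are in CPM, the scale for an assay with about 1 tag per transcript. Divided by the length of the longest annotated coding transcript, the first 2 places stayed with Nrxn2 (569 CPM per kilobase in PHF2 t/g, 576 in WT) and Nrxn3 (89.3 in PHF2 t/g, 91.8 in WT), and the last with Nlgn3. Nlgn1 then came after Lrrtm2 and Nlgn2, at 9.74 CPM per kilobase in PHF2 t/g and 9.51 in WT, so the middle of the order depends on whether tags scale with length.

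Genes for secreted and membrane proteins that bind neurexins or neuroligins, or belong to families that do, were read next; whether they differ from the 9 genes as a set was not tested. Of 22 such genes tested, 3 fell, 1 rose and 18 did not pass, where 1.49% of all tested genes fell and 0.779% rose. An unadjusted p under 0.05 was found for 7 of the 22, beside 14.7% of all tested genes. The median log2 fold change of the list was 0.10, beside 0.02 for all tested genes, whereas its summed level was lower, at 1972 to 2107 CPM in PHF2 t/g against 2153 to 2210 CPM in WT. The median and the sum thus pointed in opposite directions.

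Nxph3, which encodes a secreted neurexophilin that binds alpha-neurexins, stood at 27.5, 33.1 and 27.7 CPM in PHF2 t/g, against 48.3, 48.9 and 45.5 CPM in WT. Every PHF2 t/g library lay below every WT library. Nxph3 fell by 0.69 on the log2 scale (SE 0.11; edgeR adjusted p = 0.0022), and the adjusted p was 0.0542 without PHF2 t/g replicate 1.

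Clstn3, which encodes the postsynaptic neurexin ligand calsyntenin-3, stood at 183, 208 and 213 CPM in PHF2 t/g, against 270, 252 and 248 CPM in WT. It fell by 0.35 on the log2 scale (SE 0.08; edgeR adjusted p = 0.0289). It lost its call when replicate 1, 2 or 3 of PHF2 t/g, or 1 of WT, was left out (edgeR adjusted p = 0.263, 0.116, 0.0583 and 0.0767), by limma-voom (0.0598), with scaling by library size (0.106) without the robust fit (0.0593) and with PHF2 t/g replicate 1 and WT replicate 2 both left out (0.0926). The gene lay below 0 in each of these settings.

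Cbln1, which encodes a secreted cerebellin that bridges neurexins and delta glutamate receptors, was low. It stood at 5.22, 4.54 and 3.86 CPM in PHF2 t/g, against 10.1, 7.40 and 9.08 CPM in WT, from 24 to 63 counts per library. It fell by 0.93 on the log2 scale (SE 0.22; edgeR adjusted p = 0.0341). It was no longer called when replicate 1, 2 or 3 of PHF2 t/g, or 1 or 3 of WT, was left out (edgeR adjusted p = 0.13, 0.137, 0.141, 0.0815 and 0.0812), by limma-voom (0.0761), with scaling by library size (0.0625) and without the robust fit (0.0595).

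Adgrl3, which encodes the adhesion receptor latrophilin-3, a partner of teneurin and FLRT proteins, was the member of the list that rose. It stood at 15.4, 17.0 and 20.4 CPM in PHF2 t/g, against 10.1, 10.3 and 8.62 CPM in WT. Every PHF2 t/g library lay above every WT library. The log2 fold change equalled 0.85 (SE 0.17; edgeR adjusted p = 0.00901), and the adjusted p was 0.0665 without PHF2 t/g replicate 3.

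**Figure D3:**
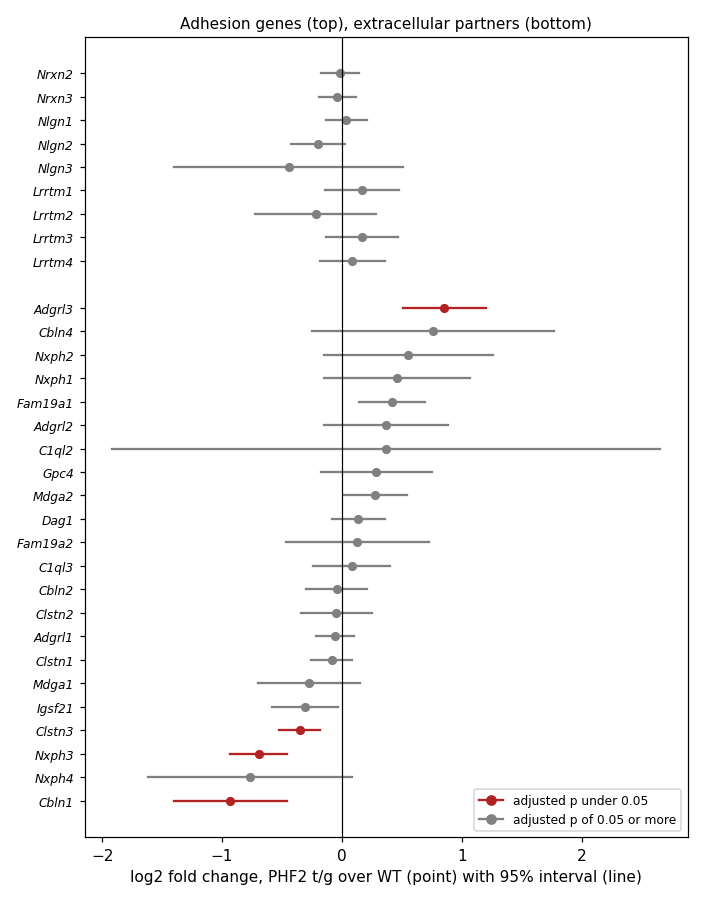
Log2 fold change of PHF2 t/g over WT (horizontal axis) with its 95% interval for the 9 adhesion genes (top) and the 22 tested extracellular partner genes (bottom), red where the edgeR adjusted p was under 0.05. The intervals of the 9 genes all cross 0, and Adgrl3, Clstn3, Nxph3 and Cbln1 are the 4 red partner genes.

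**Figure D4:**
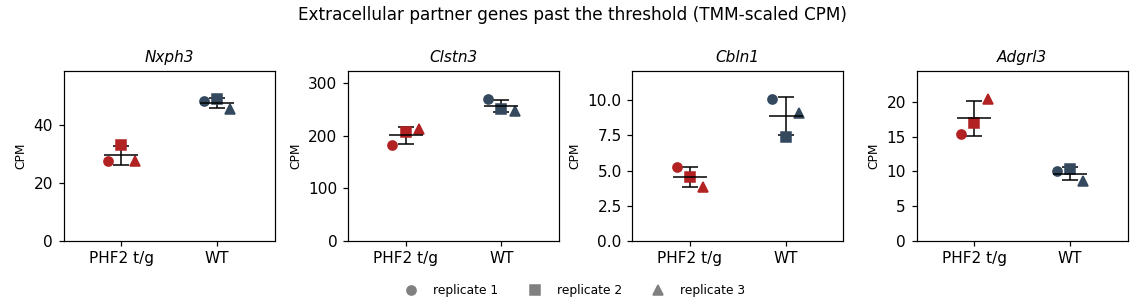
Level in CPM (vertical axes, each from 0) of the 4 partner genes that passed the test, in the 3 PHF2 t/g (red, left) and 3 WT libraries (dark, right), with marker shape for the replicate number and bars for mean ± SD. Nxph3, Clstn3 and Cbln1 are lower in every PHF2 t/g library than in every WT library, and Adgrl3 is higher.

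Scaffolds and adaptors at the cytoplasmic tails of neurexins and neuroligins gave 0 calls among 19 tested genes, where 2.27% of all tested genes were called. Their median log2 fold change was −0.02, and 4 had an unadjusted p under 0.05, beside 14.7% of all tested genes. The smallest p belonged to Apba1, which encodes the neurexin-tail adaptor Mint1 (196 ± 18.1 CPM in PHF2 t/g, 241 ± 17.8 in WT; SD, n = 3 each; edgeR adjusted p = 0.0828). Dlg4, which encodes the neuroligin-binding scaffold PSD-95, followed at 1274 ± 79.7 CPM in PHF2 t/g against 1516 ± 153 CPM in WT (SD, n = 3 each; edgeR adjusted p = 0.141).

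Other synaptic adhesion families also gave 0 calls among 30 tested genes (2.27% of all tested genes were called), with a median of −0.02. An unadjusted p under 0.05 was reached by 8 of them, beside 14.7% of all tested genes. Slitrk5, a postsynaptic partner of receptor phosphatases, was at 55.6 ± 0.544 CPM in PHF2 t/g against 42.7 ± 1.12 CPM in WT (SD, n = 3 each; edgeR adjusted p = 0.0508), and the groups did not overlap. The teneurin gene Tenm3 was at 67.1 ± 1.96 CPM in PHF2 t/g against 89.2 ± 14.5 CPM in WT (SD, n = 3 each; edgeR adjusted p = 0.0612), also without overlap. Slitrk5 passed under 2 of 16 alternatives, by edgeR with library size alone (adjusted p = 0.0167) and without the low-count filter (adjusted p = 0.0384). Tenm3 passed under 5 of 16 alternatives: by DESeq2 (adjusted p = 0.038), and by edgeR without the low-count filter (adjusted p = 0.00518), with the replicate number as a block (0.0419), without WT replicate 2 (0.000986) and without that library and PHF2 t/g replicate 1 (0.0107).

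Genes that splice neurexins or shed neurexins and neuroligins gave 0 calls among 10 (2.27% of all tested genes were called), with a median of −0.06. Of these, 1 had an unadjusted p under 0.05, where 14.7% of all tested genes did. The sheddase gene Adam10 was at 30.5 ± 3.45 CPM in PHF2 t/g against 22.7 ± 5.12 CPM in WT (SD, n = 3 each; edgeR adjusted p = 0.162). Mmp9, whose product cleaves neuroligin-1, was at 1.42 ± 0.509 CPM in PHF2 t/g against 2.14 ± 0.489 CPM in WT (SD, n = 3 each; edgeR adjusted p = 0.488).

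Markers of cell types and of neighbouring tissue were summed in the same libraries. Of all tested genes, 0.779% were called higher and 1.49% lower. The 6 excitatory neuron markers summed to 4308 to 4904 CPM in PHF2 t/g against 5029 to 5544 CPM in WT. Most of this sum came from Camk2a, at 2669 CPM in PHF2 t/g against 3214 CPM in WT (edgeR adjusted p = 0.0978). All 6 lay below 0, with 0 of 6 past the test and a median log2 fold change of −0.20. The 7 inhibitory neuron markers summed to 1015 to 1040 CPM in PHF2 t/g against 1057 to 1115 CPM in WT, with 1 higher and 1 lower. The 8 striatum markers with a row summed to 779 to 898 CPM in PHF2 t/g against 595 to 692 CPM in WT, with 3 of 7 tested genes higher. Adora2a lay below 0 (77.8 CPM in PHF2 t/g, 97.1 CPM in WT, edgeR adjusted p = 0.169), and the other 6 tested genes lay above 0. Hypothalamus markers summed to 51.5 to 53.6 CPM in PHF2 t/g against 4.76 to 5.41 CPM in WT, with 3 of 4 tested genes higher. Endothelial markers summed to 116 to 120 CPM in PHF2 t/g against 85.8 to 104 CPM in WT, with 3 of 6 higher. Of these 6 genes, 4 lay above 0 and 2 below 0. Cldn5 was below (11.7 CPM in PHF2 t/g, 17.9 CPM in WT, edgeR adjusted p = 0.0791), without overlap of the groups. Choroid plexus markers summed to 12.9 to 321 CPM in PHF2 t/g against 6.66 to 9.52 in WT, with 0 of 3 past the test. The upper end is PHF2 t/g replicate 1 alone, where Ttr stood at 292 CPM, against 3.69 and 1.29 CPM in the other PHF2 t/g libraries and 2.27 to 4.46 CPM in WT. The 3 tested choroid plexus genes lay above 0. Clic6 stood at 15.9, 5.68 and 8.69 CPM in PHF2 t/g against 2.09, 3.64 and 2.87 CPM in WT (edgeR adjusted p = 0.0614). Among glial lists, 2 of 7 oligodendrocyte genes were lower, and 0 of 7 astrocyte, 0 of 4 precursor and 0 of 6 microglia genes passed; 1 of 8 general neuron genes was lower. C1ql2 is in both the dentate and the extracellular partner list. No marker in these lists was at 0 in all libraries. The part of these differences in the changes of Nxph3, Clstn3, Cbln1 and Adgrl3 was not tested, and in bulk tissue fewer cells of a type and less RNA per cell cannot be told apart.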

How the data were processed

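The authors deposited raw counts per gene symbol, 1 table per library, without normalization. Trizol extraction and a QuantSeq kit are stated per the labels' protocols, with a catalogue number that may be that of a whole-transcript kit; this was not settled. The tools Bowtie2 and edgeR and the build mm10 appear in the submitters' processing notes; no source used here gives the counting program, annotation or use of strand. Genes were kept by filterByExpr (minimum count 10), scaled by TMM and tested with edgeR 4.0.16 in R 4.3.3 (robust quasi-likelihood fit, genotype as the only term). The procedure was tested on simulated counts whose spread followed level alone. They did not carry the difference in TMM factors between the groups, so the scaling was not checked. Alternatives were DESeq2 1.42.0, limma-voom (limma 3.58.1), other scalings and filters, a fit that was not robust, a replicate block and leaving out libraries. Named were Phf2, the 9 genes, the alpha-catenin hosts, up to 4 called genes per partner list (otherwise the 2 with the smallest p) and the 3 rows most like the member with the smallest p. The genes and lists were chosen with earlier results of these data known. Slc22a12, Gm14964, Gm4409 and Gm21986 were named for their position. Wfs1, Pou3f1, Fibcd1, Mpped1, Ttr, Clic6, Camk2a, Adora2a and Cldn5 were named after their values were seen. Positions come from GENCODE M21.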

Additional observations from a re-analysis of the deposited data

How the results depend on the processing

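Over 16 alternatives (15 for Nlgn3 and Lrrtm1, which DESeq2 gave no adjusted p), 0 of the 9 adhesion genes passed, except Lrrtm2, the 1 lower call without WT replicate 2 and the 1 without both that library and PHF2 t/g replicate 1 (chosen after seeing the data, as was a fit without Rn45s, Lrrc17 and Akap5). The direction turned with library size alone for Nrxn2 (0.0838), Nrxn3 (0.0607) and Ctnna1 (0.0357), where the median of all genes was 0.12 against 0.02. Leaving out libraries gave log2 fold changes of −0.0528 to 0.01 for Nrxn2 (above 0 without PHF2 t/g replicate 2 or WT replicate 3), −0.0694 to 0.0032 for Nrxn3 (above 0 without both libraries), −0.45 to −0.07 for Lrrtm2, −0.9707 to 0.0794 for Nlgn3 (above 0 without WT replicate 3), −0.0054 to 0.1605 for Lrrtm4 (below 0 without PHF2 t/g replicate 2), −0.0512 to 0.0924 for Phf2 and −0.1448 to 0.10 for Ctnna1. The difference in the Nrxn2 share, 0.217 points, ran from −0.404 (without WT replicate 2) to 0.714, and that of Nrxn3 from −0.714 to 0.404. The causes were not tested.

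Over all genes 291 passed, against 162 by limma-voom, 606 without the low-count filter, 149 without the robust fit, 140 without both libraries and 49 to 392 with 1 library left out; 34.4% of calls were higher with TMM, 74.7% with library size alone, 18.5% with DESeq2 and 49.0% without PHF2 t/g replicate 1. Extracellular partners, 3 lower and 1 higher, gave 1 lower and 2 higher with library size alone, 1 lower each by limma-voom and by the fit that was not robust, and 0 to 3 lower and 0 to 1 higher with 1 library left out. DESeq2 gave no adjusted p for 11 of them, Adgrl3 and Cbln1 included. Intracellular partners gave 1 higher with library size alone and 1 lower without the low-count filter. Other adhesion genes gave 1 higher with library size alone, 2 higher and 3 lower without the low-count filter, 2 lower by DESeq2, 1 lower without both libraries and 0 to 2 lower with 1 library left out; splicing and shedding genes gave 1 higher without the filter.

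Deviations of same-numbered libraries correlated at −0.00445, 0.123 and 0.0846, and those of differently numbered libraries at −0.126 to 0.0671. Replicate 3 had the lowest dentate marker sum in both groups. Whether a replicate number marks a factor shared by the groups was not tested. With the replicate number as a block 299 genes passed, 0 of the 9 among them and 1 lower among the other adhesion genes (Tenm3, adjusted p = 0.0419), and no other of these counts changed by over 1.5 times. The lowest counts behind a named adhesion gene were those of Nlgn3, at 7 to 21 per library.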
